A study of Mus musculus with 4 samples.

Results

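T cells with Itgae transcripts were split by whether they also carried a transcript of Ccr9, and the rest of the transcriptome was compared between the sides. The cells came from 2 gene expression libraries of donor CD4 T cells in mice with graft-versus-host disease (GVHD). A barcode was taken as a T cell when it held at least 1500 unique molecular identifiers (UMIs, each 1 captured transcript), at least 500 genes, at most 10% mitochondrial UMIs and at least 1 UMI of Cd3e, Cd3d or Cd3g, the chains of the CD3 complex. Each cell was then thinned at random to 1500 UMIs, so that all cells were read at equal depth. Of 30099 such T cells, 7719 (3880 in library 1 and 3839 in library 2) kept at least 1 Itgae UMI. Among these, 1774 cells (858 and 916) had at least 1 Ccr9 UMI and are called Ccr9-detected, and 5945 (3022 and 2923) had none and are called Ccr9-undetected. The cells were chosen by their Itgae and Ccr9 UMIs, so the levels of both genes, and of the 3 Cd3 genes, are descriptions, and no test of them is read.

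Ccr9 is the receptor for the chemokine Ccl25, which is made by the epithelium of the small intestine, and it guides T cells to that tissue. Itgae encodes the αE integrin chain, which pairs with the β7 chain of Itgb7 to bind E-cadherin on epithelial cells, and it marks many intraepithelial lymphocytes and tissue-resident T cells. Retinoic acid, formed by dendritic cells of the gut, induces Ccr9 when T cells are primed. Intraepithelial T cells often carry granzymes, and CD4 T cells that settle in the gut epithelium can gain the CD8α chain. In mm10, Ccr9 lies on chromosome 9 at 123678439 to 123784330 and Itgae on chromosome 11 at 73090583 to 73147446.

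Both libraries were made with the 10x Genomics 3′ chemistry (v3) from flow-sorted cells of a single genotype, RAG2-deficient BALB/c mice carrying the TS1 T cell receptor transgene (BALB/c RAG2-/- TS1 Tg), taken from GVHD mice 4 weeks after transplantation. Each library pooled 5 compartments, namely spleen, colon, skin, small-intestinal intraepithelial lymphocytes and small-intestinal lamina propria. Compartments were tagged with hashing antibodies, but no hashtag feature was read for any cell, so the compartment of a cell was not analysed here and class and compartment cannot be told apart. There is no untreated group in the split, and the labels leave unstated if the 2 replicates are different animals. The SDs therefore measure only the spread between 2 pooled libraries. The p-values of the main test rest on the spread left after the library was taken as a block, pooled over all genes. Neither measures the spread between animals.

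The libraries held 89427990 and 108082997 UMIs, and their T cells had a median of 3138 and 3860 UMIs before thinning. The Cd3 requirement removed only 28 and 16 barcodes, so cells of other types could pass it when they held stray T cell transcripts. The libraries shared 195 T cell barcodes (1.28% and 1.31%), and no doublets were removed. Leaving out the shared barcodes gave 181 rises and 431 falls in the comparison below, and leaving out the 8% of T cells with the most UMIs gave 192 and 424, against 180 and 432 with all cells. T cell genes were read against barcodes that held many UMIs of neutrophil, macrophage, erythroid or intestinal epithelial genes, as a measure of stray transcripts. These barcodes were taken with or without a Cd3 UMI. Most of them therefore also count among the T cells above, and any doublets with T cells would raise their shares. Trac, the α-chain constant gene of the T cell receptor, had a UMI in 79.3% ± 1.52 of Ccr9-detected and 73.7% ± 0.0245 of Ccr9-undetected cells, and in 24.5% ± 10.6 of those barcodes. Cd4 itself was sparse, with a UMI in 26.0% ± 3.34 of Ccr9-detected and 28.5% ± 1.62 of Ccr9-undetected cells, against 8.93% ± 5.60 of those barcodes. Cd8a, the CD8α chain, was found in 75.6% ± 3.73 of Ccr9-detected and 55.1% ± 0.369 of Ccr9-undetected cells, against 15.6% ± 10.0. Cd8b1, the β chain that conventional CD8 T cells also carry, was found in only 9.75% ± 2.20 of Ccr9-detected and 9.52% ± 0.442 of Ccr9-undetected cells, against 1.64% ± 1.32 (SD, n = 2 throughout). The level of Cd4 did not stand clear of free RNA, as given with the lineage genes below.

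Ccr9 was found in more of the Itgae-detected cells than of the other T cells. A Ccr9 UMI was present in 22.1% (95% exact Clopper-Pearson interval 20.8 to 23.5%) and 23.9% (22.5 to 25.2%) of Itgae-detected cells, and in 9.25% (8.73 to 9.80%) and 9.83% (9.28 to 10.4%) of Itgae-undetected cells. The means were 23.0% ± 1.24 and 9.54% ± 0.406 (SD, n = 2), and both libraries lay far apart between the classes and close together within them. With 2 libraries on each side an exact permutation test cannot go below p = 0.333, so no test was made. The share stood at 21.1% ± 1.05 in cells with 1 Itgae UMI, 25.4% ± 1.12 with 2 and 29.3% ± 0.982 with 3 or more (SD, n = 2). Barcodes with at least 10 UMIs of neutrophil, macrophage, erythroid or intestinal epithelial genes, with or without a Cd3 UMI, served as background. Cells of these types should lack Ccr9, but doublets with T cells may be among these barcodes. Of these, 8 of 335 (2.39%, 1.04 to 4.65%) had a Ccr9 UMI at the same 1500 UMIs, below both T cell classes, and their median depth before thinning was 3424 and 9875 UMIs against 3378.5 and 4170 in Itgae-detected cells. Barcodes with as many UMIs of 2 other lists were few and not lower: 5 of 42 (11.9%, 3.98 to 25.6%) with basophil and mast cell markers and 3 of 9 (33.3%, 7.49 to 70.1%) with plasmacytoid dendritic cell markers had a Ccr9 UMI. Whether such cells transcribe Ccr9 themselves was not tested. With markers of other dendritic and antigen-presenting cells it was 2 of 71 (2.82%, 0.343 to 9.81%), and with stromal and endothelial markers 0 of 13. The background class planned at first was barcodes without a Cd3 UMI that held UMIs of at least 3 genes of 1 list. Of these, 2 of 26 had a Ccr9 UMI (7.69%, 0.946 to 25.1%). That interval takes in the shares of both T cell classes, so this small class cannot set them apart from background. The intervals cover counting error only.

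**Figure D1:**
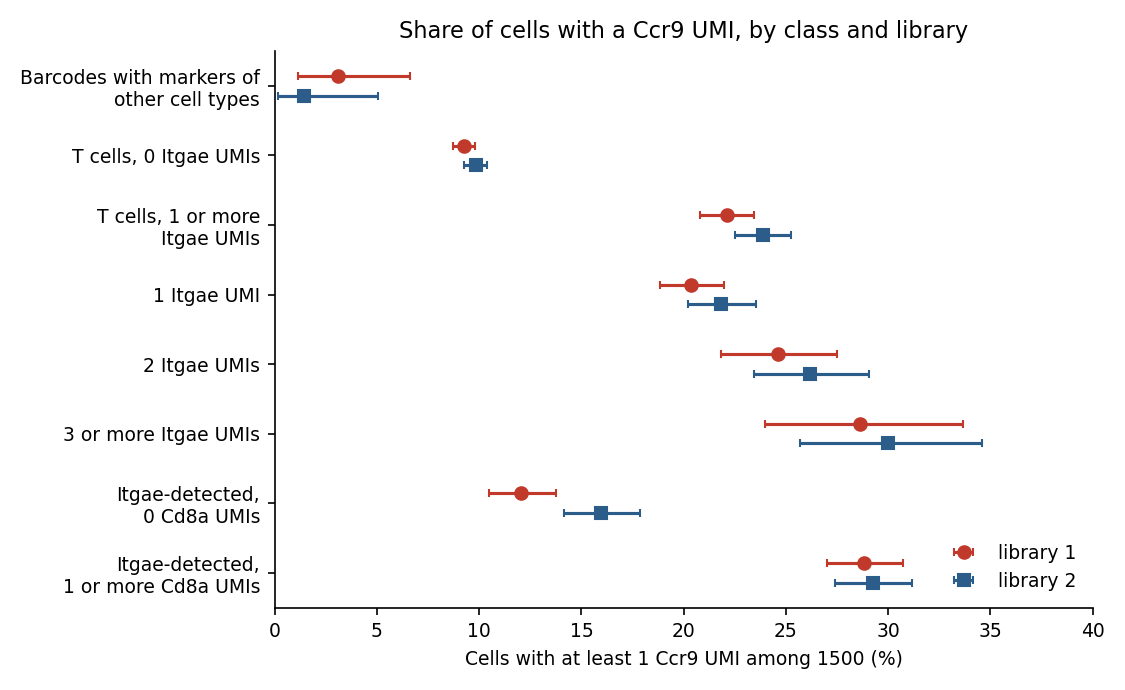
The x axis gives the percentage of cells with at least 1 Ccr9 UMI among 1500, with 1 point for each library and bars for the 95% exact binomial interval. Itgae-detected cells stand at 22.1% and 23.9%, Itgae-undetected T cells at 9.25% and 9.83%, and the plotted barcodes with markers of neutrophils, macrophages, erythroid or intestinal epithelial cells at 3.09% and 1.42%.

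Zero Ccr9 UMIs at this depth did not mean that a cell lacked the transcript. Among Ccr9-undetected cells, 26.3% and 33.8% had carried a Ccr9 UMI before thinning. The UMIs that thinning had set aside, which took no part in choosing the classes, gave the same order: Ccr9 made up 318 and 311 in 1000000 UMIs (CPM) in Ccr9-detected cells, 180 and 168 CPM in Ccr9-undetected cells, 99.0 and 96.7 CPM in Itgae-undetected T cells, and 85.3 and 91.7 CPM in the free RNA of barcodes under 100 UMIs. The Ccr9-undetected class thus still held Ccr9 transcripts. The same set-aside UMIs held 564 and 616 CPM of Itgae in Ccr9-detected cells and 499 and 516 CPM in Ccr9-undetected cells. Most Ccr9-detected cells rested on a single molecule, since 76.6% and 76.0% had exactly 1 Ccr9 UMI. Both classes were alike in complexity, with a median of 783 and 787 genes in Ccr9-detected and 789 and 789 in Ccr9-undetected cells at 1500 UMIs. Mitochondrial UMIs averaged 2.48% and 2.37% against 2.96% and 2.77%, and the median depth before thinning was 3671 and 4284.5 against 3272 and 4136 UMIs.

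Genes were tested with edgeR (quasi-likelihood) on UMIs summed over the cells of each class in each library, with the library as a block, Benjamini-Hochberg adjustment over all genes and a threshold of 0.05. Of 9372 genes tested, 180 (1.92%) rose and 432 (4.61%) fell in Ccr9-detected cells, and 610 of these 612 (6.53%) lay on the same side in both libraries. All folds below are log2 values of Ccr9-detected over Ccr9-undetected cells with the SE of the fit. The rises were small, with a median of 0.38 on the log2 scale and only 7 above 1, and the falls were larger, with a median of -0.86 and 178 beyond 1. The median of all tested genes was 0.00. The fit left out only Ccr9, so the rises include Cd3e and Cd3g, which the rule had used. Those calls stay in the counts given here but are not read as results. In the set-aside UMIs of the same cells, 598 of the 612 had the same sign and 429 were called again. A second random thinning called 404 of the 612. The spread in this fit was pooled over all genes, and other handling of it left fewer calls: DESeq2 called 12 rises and 96 falls, and edgeR without the library block called 17 and 199, so the split between rises and falls also moved. Of the 140 called genes named below, 49 were also called by DESeq2 and 79 without the block, 43 held in every setting tried outside the Cd8a classes described below, and 27 held in every setting. Because the values are sums over cells, fewer cells with a transcript and less RNA per cell cannot be told apart in them. Where both sums of a class are said to lie above or below both others, that is a description. With 2 sums on each side an exact permutation test cannot go below p = 0.333. The share of all tested genes with such an order was not counted, so the order is not used as support for any gene.

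**Figure D2:**
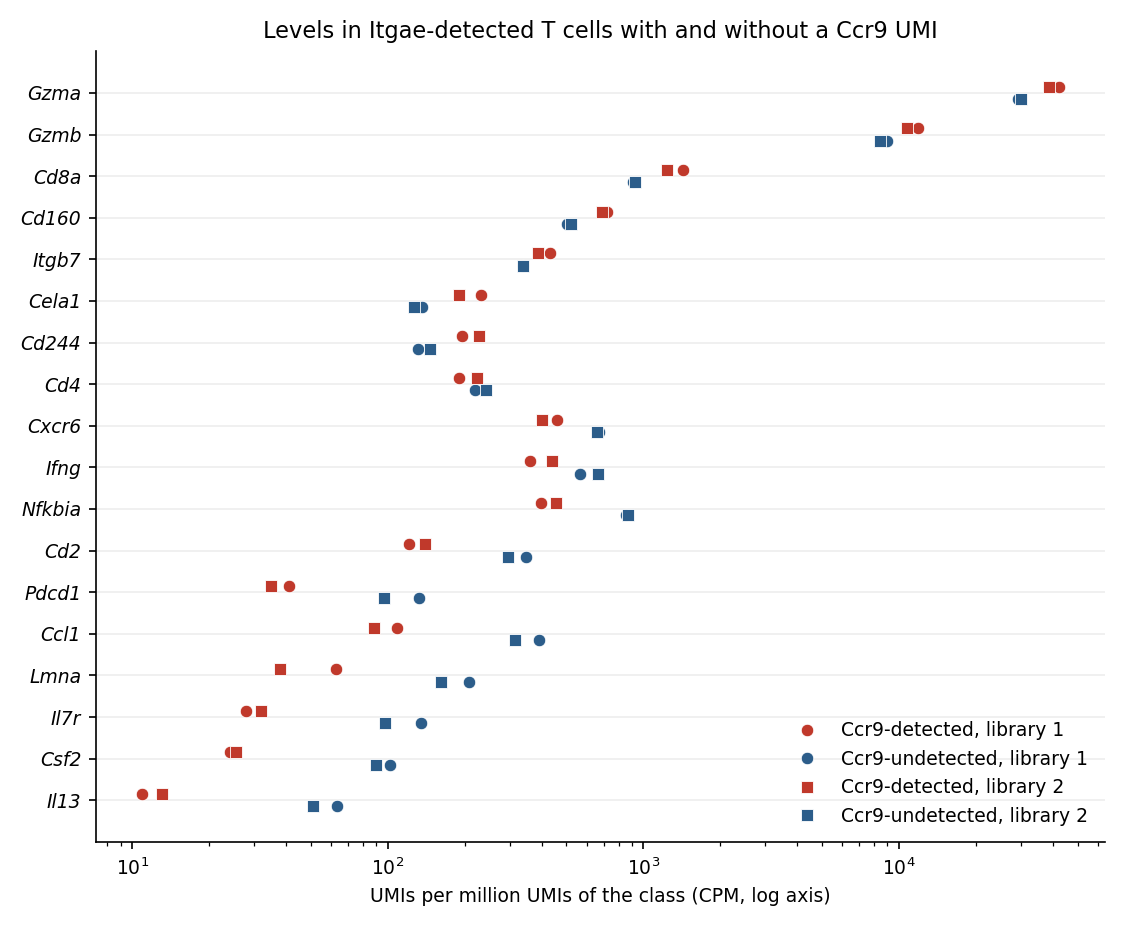
The x axis is a log axis of CPM, the UMIs of a gene in 1000000 UMIs of the class. Circles are library 1 and squares library 2, red for Ccr9-detected and blue for Ccr9-undetected Itgae-detected T cells. Gzma, Cd8a and Cd160 lie to the right in both Ccr9-detected sums, Cd4 lies close together, and Il7r, Csf2 and Il13 lie far to the left in both.

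Genes known from intestinal intraepithelial lymphocytes were mostly higher in Ccr9-detected cells. Of 16 tested genes of that list, 10 rose and 3 fell, with a median log2 difference of 0.35. Cd8a stood at 1432 and 1234 CPM in Ccr9-detected and 909 and 929 CPM in Ccr9-undetected cells. Both Ccr9-detected sums lay above both others, a difference of 0.54 ± 0.045 (edgeR adjusted p = 8.64e-31). Cela1, an elastase that mouse intraepithelial lymphocytes transcribe, stood at 232 and 189 against 137 and 127 CPM, again without overlap (log2 difference 0.68 ± 0.083, edgeR adjusted p = 3.87e-14). Cd160, a receptor for the ligand HVEM, stood at 721 and 689 against 501 and 520.5 CPM and rose by 0.47 ± 0.053 on the log2 scale (edgeR adjusted p = 6.68e-17). Cd7, an immunoglobulin-family protein of T and NK cells, stood at 2580 and 2608 against 1799 and 1973 CPM (log2 difference 0.47 ± 0.04), and Cd244, the receptor 2B4, at 195 and 227 against 131 and 147 CPM (log2 difference 0.61 ± 0.082). DESeq2 also called these 5 genes. The remaining rises of the list were Gpr55, Lat2, Actn2, Cd96 and Jaml, between 0.21 and 0.57. The 3 genes that fell were the signalling adaptors Fcer1g (-1.79 ± 0.43) and Tyrobp (-1.60 ± 0.38) and the chemokine Xcl1 (-1.11 ± 0.15). Fcer1g and Tyrobp rested on few molecules, 3 and 6 and 8 and 4 UMIs in Ccr9-detected cells, and Tyrobp lost its call without cells that held markers of other types (log2 difference -1.18) and in 6 other settings. Xcl1 differed between the libraries, by -1.91 in library 1 and -0.52 in library 2.

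The lineage genes that set CD4 against CD8 fate were not called. Cd4 stood at 191 and 224 CPM in Ccr9-detected and 219.7 and 242 CPM in Ccr9-undetected cells, a log2 difference of -0.15 ± 0.077 (edgeR adjusted p = 0.326). Free RNA held 211 and 199 CPM of Cd4, close to both classes. Cd8b1 stood at 87.9 and 67.0 against 73.2 and 74.6 CPM, with overlapping libraries (log2 difference 0.07 ± 0.12). Runx3, the transcription factor that promotes the CD8 programme, differed by 0.15 ± 0.06 (edgeR adjusted p = 0.125), and Zbtb7b, which maintains the CD4 fate, by a log2 value of -1.02 ± 0.44 on 8 and 3 UMIs in Ccr9-detected cells (edgeR adjusted p = 0.178). In that list of 9 tested genes, 3 rose and 0 fell, and besides Cd8a these were the CD5-family surface proteins Cd5 (0.33 ± 0.07) and Cd6 (0.26 ± 0.063). Of 8 tested constant-region and CD3ζ genes of the T cell receptor, 4 rose and 0 fell. Trac rose by 0.21 ± 0.046, Trbc1 by 0.20 ± 0.048, Trbc2 by 0.16 ± 0.038 and Tcrg-C4, a γ-chain constant gene, by 0.31 ± 0.063. DESeq2 called none of these 4, and Trbc1 and Trbc2 are near-identical copies that the counting could split.

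Granzymes made up a larger part of the transcripts in Ccr9-detected cells. Gzma, a serine protease of cytotoxic granules, stood at 42231 and 38667 CPM in Ccr9-detected and 29295 and 29910 CPM in Ccr9-undetected cells, and Gzmb, the granule protease that activates caspases, at 11836 and 10705 against 8978 and 8402 CPM. For both genes the 2 Ccr9-detected sums lay above the 2 others. Their transcripts were also abundant in free RNA, at 12296 and 13671 CPM for Gzma and 4062 and 4106 CPM for Gzmb. Of the barcodes with markers of other cell types, 72.6% ± 10.4 had a Gzma UMI and 54.6% ± 22.0 a Gzmb UMI (SD, n = 2). The share of cells with a UMI is therefore not read as expression. The log2 differences were 0.46 ± 0.037 for Gzma (edgeR adjusted p = 5.81e-33) and 0.38 ± 0.037 for Gzmb (edgeR adjusted p = 7.26e-23), and DESeq2 called both. Of 13 tested granule genes, 3 rose and 2 fell, with a median of 0.06. The third rise was the granule membrane protein Nkg7 (0.12 ± 0.039). Cathepsin W (Ctsw) fell by 0.34 ± 0.061, and Gzmc fell too but rested on few UMIs. It had 3 and 8 UMIs in 858 and 916 Ccr9-detected cells, against 66 and 77 in 3022 and 2923 Ccr9-undetected cells. These are raw sums over classes of unlike size. Gzmc also belongs to a family of genes of similar sequence, and reads shared between such genes may be lost or miscounted. Of 14 tested genes of the interferon response, 4 rose, 0 fell and 10 were not called, with a median of 0.22. Isg15, an ubiquitin-like protein induced by interferon, stood at 424 and 496 against 336 and 399 CPM (0.33 ± 0.06), and the other 3 were Ifit1, which overlapped between the classes (0.44 ± 0.14), Rtp4 (0.39 ± 0.12) and Ifi27l2a (0.30 ± 0.046). DESeq2 called Ifi27l2a of these 4.

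The chemokine receptors other than Ccr9 were mostly lower. Of 8 tested, 6 fell and 1 rose, with a median of -1.05, and 6 more, among them the lymph node receptor Ccr7, were too sparse to test. Cxcr6, a receptor of many tissue-resident T cells, stood at 457 and 402 CPM in Ccr9-detected and 672 and 657 CPM in Ccr9-undetected cells. Both Ccr9-detected sums lay below both others, a log2 difference of -0.62 ± 0.057 (edgeR adjusted p = 1.77e-25). Ccr2, a receptor for inflammatory monocyte chemokines, stood at 31.9 and 42.2 against 78.8 and 67.3 CPM and fell by 0.96 ± 0.15, and Cxcr4, the receptor for Cxcl12, stood at 10.9 and 9.47 against 25.1 and 20.3 CPM and fell by 1.15 ± 0.27. Ccr1, Ccr8 and Cx3cr1 fell too, but Ccr8 had only 2 and 0 UMIs, Cx3cr1 4 and 0 and Ccr1 2 and 3 UMIs in Ccr9-detected cells, against 24 and 28 for Ccr8 and 46 and 39 for Cx3cr1 in Ccr9-undetected cells, so that no fold is given for them. Cxcr3, the receptor for interferon-induced chemokines, was not called (46.7 and 44.4 against 46.5 and 52.7 CPM, log2 difference -0.12 ± 0.15). Of these receptors DESeq2 called Cxcr6.

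Integrins moved in both directions. Itgb7, the partner of the αE chain, stood at 429 and 388 CPM in Ccr9-detected and 338 and 339 CPM in Ccr9-undetected cells, with both Ccr9-detected sums above both others, and rose by 0.28 ± 0.062 (edgeR adjusted p = 3.24e-04). Itga1, a collagen-binding chain, stood at 145 and 160.3 against 104 and 138 CPM and rose by 0.34 ± 0.092 (edgeR adjusted p = 0.00496), with library 2 of the Ccr9-undetected cells close to library 1 of the Ccr9-detected cells. Itga4, whose protein pairs with β7 in the gut-homing integrin α4β7, was not called (64.5 and 85.2 against 60.0 and 77.5 CPM, log2 difference 0.13 ± 0.12). Of 11 tested integrins, 2 rose and 3 fell: the β1 chain Itgb1 (-1.16 ± 0.23), the LFA-1 chain Itgal (-0.73 ± 0.13) and the αv chain Itgav (-0.59 ± 0.15). None of these 5 passed DESeq2. Of 8 tested genes of the retinoic acid pathway, 0 rose and 2 fell, among them the receptor Rara, from 26.9 and 21 CPM to 7.0 and 12.4 CPM (-1.28 ± 0.27), and DESeq2 called 0.

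Among G protein-coupled receptors that place lymphocytes in tissue, 2 of 14 rose and 2 fell. Gpr55, a lipid receptor of intraepithelial lymphocytes, stood at 86.3 and 85.2 CPM in Ccr9-detected and 54.5 and 61.4 CPM in Ccr9-undetected cells and rose by 0.57 ± 0.12, and the prostaglandin receptor Ptger4 rose by 0.27 ± 0.087. Gpr183, the oxysterol receptor that draws cells to lymphoid structures, stood at 24.1 and 24.8 against 80.3 and 60.9 CPM and fell by 1.51 ± 0.17 (edgeR adjusted p = 4.99e-17), which DESeq2 also called, and Gpr132 fell by 0.41 ± 0.14, a call that held in only 3 of 15 other settings. Gpr18, another receptor of intraepithelial lymphocytes, was not called (147 and 153 against 127 and 125 CPM, log2 difference 0.26 ± 0.091, edgeR adjusted p = 0.0611). Markers of tissue residency did not move as a block: 3 of 17 rose and 6 fell, with a median of -0.08. The purine receptor P2rx7 (0.53 ± 0.14), the retinoid-responsive regulator Hic1 (0.44 ± 0.095) and Itga1 rose. Icos (-1.33 ± 0.12), the transcription factor Bhlhe40 (-1.23 ± 0.076), Rgs2, Nr4a1 and Cxcr6 fell, as did Cd69, which holds T cells in tissue, by a small amount and with overlapping libraries (743 and 891 against 871 and 987 CPM, log2 difference -0.18 ± 0.049). Rgs1, a signalling brake that is abundant in gut T cells, was not called (1405 and 1514 against 1214 and 1496 CPM). Of 8 tested genes of a mixed list for tissue exit and lymphoid retention, 0 rose and 4 fell. These were Klf2, which drives exit (-0.79 ± 0.12), the hyaluronan receptor Cd44 (-1.28 ± 0.12), Itgb1 and Cd52 (-0.27 ± 0.039). S1pr1, the exit receptor itself, had 3 and 5 UMIs in Ccr9-detected cells and was not called. Of 6 tested genes of the aryl hydrocarbon receptor pathway, Ahrr, its repressor, rose (0.94 ± 0.26) and Hif1a fell (-0.93 ± 0.091), while Ahr was not called (0.072 ± 0.14). The call of Ahrr held in only 7 of 15 other settings and was lost in the second random draw and the set-aside UMIs. That of Hif1a held in all 15.

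Ifng, Tnf, Il13, Csf2 and Ccl1 fell in Ccr9-detected cells, while Ccl5 rose and Il10 was not called. Ifng, the defining cytokine of type 1 helper cells, stood at 360.1 and 438 CPM in Ccr9-detected and 567 and 664 CPM in Ccr9-undetected cells and had a UMI in 34.4% ± 4.95 of Ccr9-detected and 42.3% ± 2.40 of Ccr9-undetected cells, against 24.0% ± 11.9 of the barcodes with markers of other cell types (SD, n = 2) and a level of 841 and 939.7 CPM in free RNA, above both classes. Both Ccr9-detected sums lay below both others, a log2 difference of -0.62 ± 0.058 (edgeR adjusted p = 5.27e-24). Tnf stood at 52.9 and 57.5 against 136 and 128 CPM and fell by 1.25 ± 0.12, and both chains of the receptor for interleukin 18 fell, Il18r1 (-1.81 ± 0.15) and Il18rap (-1.31 ± 0.21). In the type 1 list, 6 of 15 fell and 2 rose, with a median of -0.22, the rises including the chemokine Ccl5 (54213 and 54225 against 40588 and 45803 CPM, log2 difference 0.34 ± 0.037). In the type 2 list, 5 of 8 fell and 0 rose, with a median of -0.74. Il13, a cytokine of allergic and barrier responses, stood at 10.9 and 13.1 against 63.3 and 51.1 CPM and fell by 2.23 ± 0.21 (edgeR adjusted p = 2.58e-23). Csf2, which encodes GM-CSF, stood at 24.1 and 25.5 against 102 and 89.9 CPM and fell by 1.94 ± 0.16 (edgeR adjusted p = 3.91e-32). Ccl1, the chemokine that Ccr8 binds, stood at 109 and 88.1 against 391 and 314 CPM and fell by 1.83 ± 0.087 (edgeR adjusted p = 1.90e-92). In all 3 genes the classes did not overlap, and DESeq2 called all 3, with Ifng, Tnf and Il18r1. The other 2 falls were the type 2 transcription factors Maf (-0.72 ± 0.11) and Gata3 (-0.65 ± 0.14).

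Type 17 and regulatory genes were sparse and, where called, mostly lower. Of 5 tested type 17 genes, 3 fell and 0 rose: Rora (-0.38 ± 0.081) and the membrane proteins Tmem176a (-1.24 ± 0.33) and Tmem176b (-2.18 ± 0.32), the latter with 7 and 7 UMIs in Ccr9-detected cells, and DESeq2 called 0 of them. Of 7 tested regulatory genes, 5 fell and 1 rose. Il2ra, the high-affinity chain of the interleukin 2 receptor, fell by 2.60 ± 0.36 on 3 and 7 UMIs in Ccr9-detected cells. The other falls were Tnfrsf4, which encodes OX40 (-1.50 ± 0.14), the actin-capping protein Capg (-0.92 ± 0.082), Tnfrsf18, which encodes GITR (-0.69 ± 0.10), and the inhibitory receptor Ctla4 (-0.32 ± 0.08), and the transcription factor Ikzf2 rose (0.37 ± 0.083). Il10, an anti-inflammatory cytokine, was not called (12.4 and 15.3 CPM in Ccr9-detected and 20.5 and 19.8 CPM in Ccr9-undetected cells). Foxp3, which defines regulatory T cells, was too sparse to test.

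Several receptors for activating and survival signals fell as well. Of 12 co-stimulatory receptors, 7 fell and 0 rose, with a median of -0.82, and of 18 cytokine receptors 9 fell and 0 rose, with a median of -0.46. DESeq2 called 5 of the former and 4 of the latter. Cd2, an adhesion and co-stimulatory receptor, stood at 121 and 139.9 CPM in Ccr9-detected and 348 and 295 CPM in Ccr9-undetected cells and fell by 1.29 ± 0.082 (edgeR adjusted p = 5.61e-52). Cd28, the main co-stimulatory receptor, stood at 64.5 and 72.8 against 167 and 156 CPM and fell by 1.22 ± 0.11. Il7r, the receptor for the survival cytokine interleukin 7, stood at 28.0 and 32.1 against 135 and 97.8 CPM. In free RNA it stood at 123 and 121 CPM, near the Ccr9-undetected cells. It was found in 3.93% ± 0.775 of Ccr9-detected and 12.5% ± 2.65 of Ccr9-undetected cells, the former no higher than the 4.19% ± 0.0931 of barcodes with markers of other cell types (SD, n = 2), and fell by 1.94 ± 0.14 (edgeR adjusted p = 1.42e-38). The decoy receptor Il1r2 fell by 2.07 ± 0.27. For these 4 genes both Ccr9-detected sums lay below both others, and DESeq2 called all 4. In the progenitor list 3 of 10 fell, Il7r, Satb1 (-0.53 ± 0.13) and Ltb (-0.34 ± 0.06), and Tcf7, which marks stem-like T cells, was not called (7.78 and 15.3 against 19.9 and 17.1 CPM, log2 difference -0.66 ± 0.27). Inhibitory receptors were mixed, with 5 of 12 rising and 3 falling. Cd244, Cd160, Cd96 (0.34 ± 0.079), the exhaustion-linked factor Tox with overlapping libraries (0.29 ± 0.093) and Lag3 (0.25 ± 0.066) rose, though Lag3 was at -0.09 without thinning. Pdcd1, the PD-1 receptor, stood at 41.2 and 35.0 against 133 and 96.2 CPM and fell by 1.57 ± 0.14 (edgeR adjusted p = 1.02e-28), and Havcr2 (TIM-3) fell by 0.75 ± 0.15, with Ctla4 the third. Of 8 tested killer receptors, 0 rose and 3 fell: the near-identical Klrc1 (-1.76 ± 0.13) and Klrc2 (-1.76 ± 0.14), which encode NKG2 chains, and Klrk1, which encodes NKG2D (-1.13 ± 0.12).

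Most genes of early activation fell. Of 16 AP-1 and immediate early genes, 13 fell and 0 rose, with a median of -0.45, and the summed level of the list was 6242 and 7135 CPM in Ccr9-detected against 8238 and 8895 CPM in Ccr9-undetected cells. Atf3, a stress-induced transcription factor, stood at 25.7 and 23.3 CPM in Ccr9-detected and 96.4 and 75.9 CPM in Ccr9-undetected cells and fell by 1.80 ± 0.16 (edgeR adjusted p = 2.63e-26), and Fosb fell by 0.88 ± 0.086. Fosl2 fell by 1.01 ± 0.18, with unlike libraries at -2.17 and -0.35, and Egr3 (log2 difference -1.52 ± 0.38) rested on 8 and 4 UMIs in Ccr9-detected cells. DESeq2 called 5 of the 13 falls, Atf3 and Fosb among them. Of 13 genes of the NF-κB pathway, 6 fell and 0 rose, with a median of -0.53. Nfkbia, the inhibitor that NF-κB induces, stood at 398 and 456 against 855 and 871 CPM and fell by 1.01 ± 0.055 (edgeR adjusted p = 7.98e-70), and the feedback enzyme Tnfaip3 fell by 0.61 ± 0.078, and DESeq2 called 3 of the 6. Of 12 heat shock genes, 4 fell and 1 rose, with a median of -0.13. The near-identical inducible chaperones Hspa1a and Hspa1b fell by 2.05 ± 0.12 (Hspa1a, from 203 and 151 to 50.5 and 34.2 CPM) and by 2.08 ± 0.14 (Hspa1b), and Dnajb1 (-0.74 ± 0.12) and Hspa5 (-0.16 ± 0.053) fell less, while Dnajb4 rose by 0.55 ± 0.19 and was at -0.13 in the set-aside UMIs. Of 13 genes of the TGF-β pathway, which induces Itgae, 5 fell and 0 rose: Tgif1, Itgav, Tgfb1 (-0.52 ± 0.086), Smad7 (-0.48 ± 0.10) and Skil, of which DESeq2 called 0. Immediate early and heat shock genes can rise while tissue is digested, and the labels' protocols prepared the intraepithelial cells with EDTA and DTT and the other gut and skin cells with enzymes. Without a compartment for each cell, preparation and class cannot be told apart.

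Among metabolic lists, glycolysis held the most falls. Of 15 glycolysis genes, 9 fell and 0 rose, with a median of -0.33. The glucose transporter Slc2a1 fell by 1.39 ± 0.28, the glycolytic enzyme Tpi1 stood at 56.0 and 53.2 CPM in Ccr9-detected and 124 and 82.8 CPM in Ccr9-undetected cells and fell by 0.90 ± 0.13, and Eno1 (-0.43 ± 0.072) and Ldha (-0.37 ± 0.056) fell less. DESeq2 called 2 of these falls, Tpi1 and Ldha. Of 16 genes of oxidative phosphorylation, edgeR and DESeq2 each called 0 and edgeR had 1 at an unadjusted p under 0.05, with a median of 0.04. Of 15 ribosomal protein genes, 3 fell and 0 rose, with Rps19 furthest at -0.18. In cholesterol synthesis, 2 of 13 rose, the synthesis enzymes Cyp51 (0.46 ± 0.13) and Idi1 (0.41 ± 0.12), with a median of 0.25. Fabp2, an intestinal fatty acid binding protein, was the 1 rise among 12 genes of fatty acid uptake and oxidation (0.62 ± 0.14, but -0.77 without thinning), while its relative Fabp1 was not called (19.4 and 13.8 against 14.1 and 12.3 CPM). Fabp2 is also a marker of enterocytes. Of 14 genes of survival and death, 0 rose and 2 fell, the close copies Bcl2a1b and Bcl2a1d. Of 16 proliferation genes, 1 rose, Birc5, a spindle protein (0.40 ± 0.13), with overlapping libraries, and it stood at -0.09 once cells with 3 or more proliferation UMIs were left out. Mki67 was not called (38.9 and 30.6 against 35.1 and 38.1 CPM), and the share with a Ccr9 UMI was 23.8% ± 3.13 in such cycling cells and 22.8% ± 0.754 in the others (SD, n = 2).

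**Figure D3:**
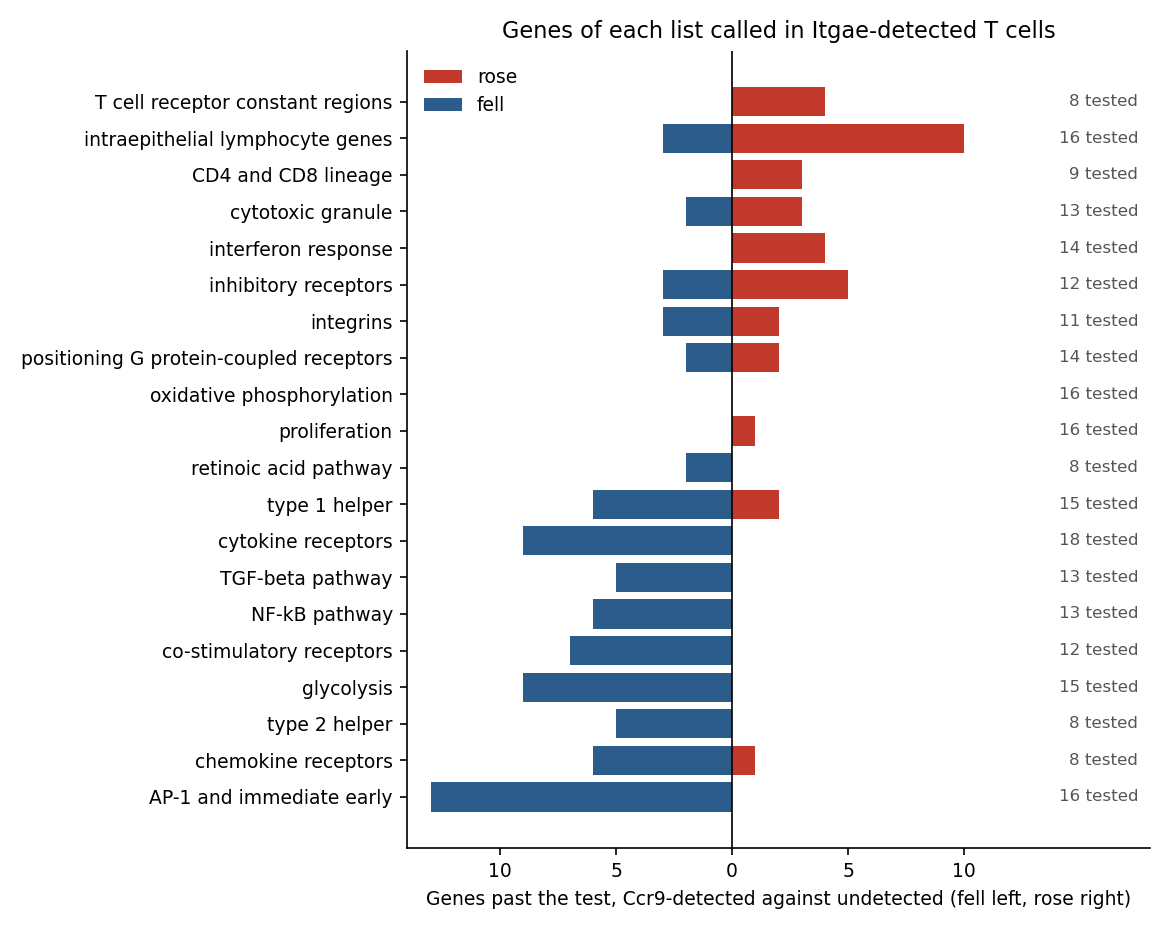
Bars to the right count the genes of each list that rose, and bars to the left those that fell, in Ccr9-detected against Ccr9-undetected cells by edgeR, with the number tested at the right edge. AP-1 and immediate early genes have 13 falls of 16, and intraepithelial lymphocyte genes have 10 rises of 16.

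The largest single changes came from genes outside these pathways as well. Where the higher class reached 50 CPM or more, the largest rises were Apol10b, an apolipoprotein L (73.1 and 55.4 CPM in Ccr9-detected and 37.9 and 37.2 CPM in Ccr9-undetected cells, log2 difference 0.78 ± 0.15), Cela1 and Lyl1, a blood-lineage transcription factor (80.1 and 99.1 against 54.5 and 60.9 CPM, log2 difference 0.64 ± 0.12). The repressor Gfi1 (0.60 ± 0.14), the Notch target Heyl (0.57 ± 0.16) and Art2b, a surface ADP-ribosyltransferase (0.55 ± 0.10), rose as well. Of these 6, DESeq2 called only Cela1. The falls reached further. Tnfsf11, the cytokine RANKL, stood at 16.3 and 10.2 against 68.6 and 53.1 CPM and fell by 2.19 ± 0.21 (edgeR adjusted p = 3.84e-24). Anxa1, an annexin that dampens inflammation, stood at 18.7 and 18.9 against 105 and 66.8 CPM and fell by 2.17 ± 0.17 (edgeR adjusted p = 7.75e-33). Lmna, which encodes nuclear lamins A and C, stood at 63.0 and 37.9 against 209 and 161 CPM and fell by 1.87 ± 0.11 (edgeR adjusted p = 4.66e-56). Csf1, a macrophage growth factor, stood at 28.8 and 19.7 against 100.2 and 86.7 CPM and fell by 1.94 ± 0.16, and the membrane protein Emp1 stood at 15.6 and 14.6 against 68.8 and 55.0 CPM and fell by 2.02 ± 0.20. The antiviral membrane proteins Ifitm1 and Ifitm2, which are close copies, fell from 460.2 and 267 to 98.8 and 85.2 CPM (-1.96 ± 0.089) and from 737 and 471 to 184 and 153 CPM (-1.82 ± 0.071), opposite to the 4 interferon-response rises above. DESeq2 called all 7 of these falls. In each of them both Ccr9-detected sums lay below both others, but the genes were picked for large falls, so that order is no separate support.

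Along steps of Ccr9 detection, the cells without any Ccr9 UMI stood apart from the rest. Cells were set in 4 steps by their Ccr9 UMIs: none even before thinning (2226 and 1935 cells), none left after thinning (796 and 988), 1 (657 and 696) and 2 or more (201 and 220). The middle steps lie just outside and just inside the threshold of the rule, and their values are descriptions without a test. Gzma stood at 24321 and 25031 CPM in the first step, 43207 and 39467 in the second, 41121 and 39120 in the third and 45861 and 37231 in the fourth. Cd8a stood at 749.6 and 742, 1355 and 1295, 1381 and 1230 and 1601 and 1247 CPM. Il7r ran the other way, at 169 and 129, 41.9 and 37.1, 35.5 and 33.5 and 3.32 and 27.3 CPM. Ifitm1 stood at 590.3 and 364, 96.3 and 76.9, 109.7 and 88.2 and 63.1 and 75.9 CPM. In these 4 genes the cells that had lost their Ccr9 UMI to thinning lay close to cells that kept 1. The second step holds only cells with UMIs to spare, so depth before thinning also differs between the steps.

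**Figure D4:**
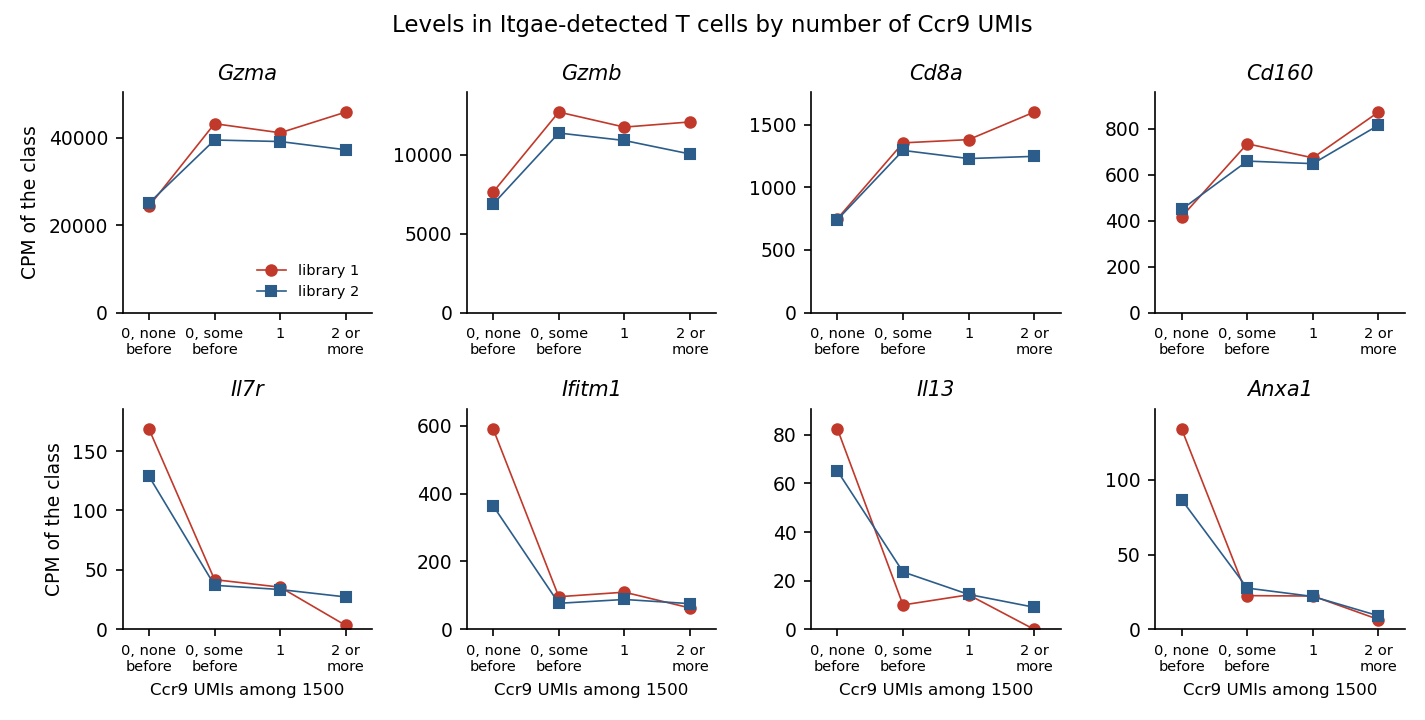
Each panel gives the CPM of a gene in 4 steps of Ccr9 UMIs, from none before thinning through none left after thinning and 1 to 2 or more, with a line for each library. Gzma, Gzmb, Cd8a and Cd160 are lowest and Il7r, Ifitm1, Il13 and Anxa1 highest in the cells without any Ccr9 UMI.

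Markers of other cell types moved with the split. All 6 edgeR-tested neutrophil markers fell, among them the granule and alarmin genes S100a8 (36.6 and 129.7 CPM in Ccr9-detected and 254 and 298 CPM in Ccr9-undetected cells), S100a9 and Ngp, and the list of 10 summed to 133 and 368 CPM in Ccr9-detected against 808 and 860 CPM in Ccr9-undetected cells, with Cxcr2 at 0 in the former. Without the cells that held 5 or more UMIs of any other cell type's list, S100a8, S100a9 and Ngp stood at -0.19, -0.23 and -0.32 and were not called, and the comparison gave 173 rises and 413 falls. Haemoglobin Hbb-bs stood at 7.78 and 19.7 against 9.04 and 149 CPM, so that its fall came from library 2 alone (-0.17 in library 1 and -2.90 in library 2), and without those cells it was at -0.09. Macrophage markers summed to between 40.4 and 58.2 CPM in Ccr9-detected and between 91.5 and 111 CPM in Ccr9-undetected cells (2 of 10 tested, Lyz2 and Ccr2, both fell), with Csf1r and Fcgr1 at 0 in both Ccr9-detected sums. Antigen-presenting cell markers summed to 75.4 to 112 against 111 to 159 CPM (5 of 10 tested, H2-Aa and Cd74 fell), with Flt3, Cd209a and Ccl17 at 0. Plasmacytoid dendritic cell markers summed to 227 to 237 against 244 to 293 CPM (3 of 9 tested, Irf8 and Runx2 fell), with Siglech, Cox6a2, Klk1 and Cd300c at 0. Basophil and mast cell markers summed to 1.55 to 10.9 against 10.9 to 32.6 CPM (1 of 10 tested, Prss34, which fell), with 7 of 10 at 0, among them Cpa3 and Fcer1a. B cell markers summed to 8.55 to 9.46 against 10.0 to 14.3 CPM (1 of 10 tested, not called), with Ms4a1 and Pax5 among 7 at 0. Erythroid markers summed to 14.0 to 32.8 against 15.9 to 231 CPM (3 of 9 tested, Hba-a2 and Hbb-bs fell), with Alas2, Slc4a1 and Hbb-bt at 0. Of tissue cells, intestinal epithelial markers summed to 141 to 143 against 128 to 147 CPM, so their ranges overlapped (10 of 15 tested, Fabp2 rose and Cdh1 fell, Vil1 at 0). Skin epithelial markers summed to 13.2 to 18.9 against 27.1 to 33.1 CPM (3 of 10 tested, Lgals7 fell), with Krt5, Krt14, Krt1, Krt15 and Krt17 at 0. Stromal markers summed to 3.64 to 6.99 against 6.16 to 17 CPM (1 of 10 tested, not called), with Col1a2, Col3a1, Lum, Cdh5 and Kdr at 0. Markers of NK and innate lymphoid cells summed to 52.4 to 55.9 against 61.4 to 66.6 CPM (3 of 11 tested, 0 called by edgeR or DESeq2 and 1 at an unadjusted p under 0.05), with Klrb1c among 6 at 0. The genes given at 0 are those at 0 in both Ccr9-detected sums. These sums were smaller, with 1281303 and 1367766 UMIs of tested genes against 4512543 and 4364996. Flt3, Cd209a, Cd300c, Ms4a1, Pax5, Slc4a1, Krt15, Cdh5 and Kdr were also at 0 in both Ccr9-undetected sums. Csf1r, Fcgr1, Ccl17, Siglech, Cox6a2, Klk1, Alas2, Krt5, Krt14, Krt1, Col1a2, Col3a1 and Lum were at 0 in 1 of those. H2-Aa was at 0.068 without cells that held markers of other types, and Hba-a2 and Prss34 fell in 1 library each. Without the cells that held markers of other types, 11 of the 140 called genes named here lost their call: Cd74, Dnajb4, Gpr132, H2-Aa, Hbb-bs, Lyz2, Ngp, Prss34, S100a8, S100a9 and Tyrobp, and Hba-a2 could not be tested.

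The same split in the 22380 Itgae-undetected T cells, of which 2134 were Ccr9-detected, showed where Itgae-detected cells differed. There, edgeR called 559 rises (5.07%) and 730 falls (6.62%) among 11024 genes tested, 11.7% in all. The difference between the differences, tested as an interaction in edgeR over 8 sums, was called for 71 of 9793 genes (0.725%), 66 of them lower (0.674%) and 5 higher (0.0511%) in Itgae-detected cells, while DESeq2 called 29 and edgeR without the block 9. As with Ccr9, 0 Itgae UMIs after thinning did not mean that a cell lacked the transcript. Before thinning, 12539 T cells held an Itgae UMI, against 7719 after it. In the set-aside UMIs, Itgae-undetected cells held 164 and 165 CPM of Itgae, against 188 and 206 CPM in free RNA. Cells said to be without Itgae are those with 0 Itgae UMIs after thinning. Gzma stood at 25192 and 21348 CPM in Itgae-undetected cells with Ccr9 and 8527 and 7734 CPM in those without, against 42231 and 38667 and 29295 and 29910 CPM in Itgae-detected cells. The 4 classes thus followed 1 order without overlap between libraries, with Itgae-detected Ccr9-undetected cells above the Ccr9-detected cells without Itgae. The Ccr9 difference was 1.53 on the log2 scale without Itgae and 0.46 ± 0.037 with it (interaction -1.08 ± 0.05, edgeR adjusted p = 6.39e-18). Free RNA held 12296 and 13671 CPM of Gzma and 423 and 434 CPM of Cd8a. For both genes that lies above the Ccr9-undetected cells without Itgae, so their differences without Itgae start from a level below free RNA. Cd8a stood at 792 and 685 against 258 and 213 CPM without Itgae, a difference of 1.67, and the interaction was -1.13 ± 0.074 (edgeR adjusted p = 1.58e-13). Tcrg-C4, Hic1 and Heyl followed the same pattern, with interactions of -1.08 ± 0.10, -1.01 ± 0.14 and -1.10 ± 0.23, as did Cd160 (-0.68 ± 0.081), and 7 of 16 genes of the intraepithelial list had a lower difference in Itgae-detected cells, with 0 higher. Il7r went the other way: its log2 difference was -0.84 without Itgae and -1.94 ± 0.14 with it (interaction -1.11 ± 0.20, edgeR adjusted p = 0.0014). Sema4a, a semaphorin, fell from 63.3 and 64.9 to 37.4 and 47.5 CPM without Itgae and from 34.0 and 30.8 to 10.1 and 6.56 CPM with it (interaction -1.39 ± 0.31, edgeR adjusted p = 0.0167). For Ifng the interaction was -0.028 ± 0.073 (edgeR adjusted p = 0.967) and for Csf2 -0.40 ± 0.20 (edgeR adjusted p = 0.661), so no difference between the classes was called for these cytokines.

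Within Itgae-detected cells, Ccr9 went with Cd8a. A Ccr9 UMI was found in 28.8% and 29.2% of Cd8a-detected cells and in 12.0% and 16.0% of Cd8a-undetected cells. Repeating the comparison within each Cd8a class gave 147 rises and 306 falls among Cd8a-undetected cells and 1 rise and 66 falls among Cd8a-detected cells, although the latter class was larger (1339 against 435 Ccr9-detected cells). The single rise was Cela1. Gzma differed by 0.93 on the log2 scale without Cd8a and by 0.11 with it, a tested gap of -0.79 ± 0.066 (edgeR interaction, adjusted p = 1.15e-11), and Gzmb by 0.88 and 0.03 (-0.82 ± 0.064, edgeR adjusted p = 1.98e-12). The gap was also called for Cd160 (-0.68 ± 0.12), Cd244 (-0.79 ± 0.19), Tcrg-C4 (-0.61 ± 0.15) and Apol10b (-1.38 ± 0.33). Some falls were smaller in Cd8a-detected cells too, with gaps of 2.06 ± 0.33 for Pdcd1, 1.66 ± 0.28 for Lmna, 1.83 ± 0.22 for Ifitm1 and 0.72 ± 0.11 for Cxcr6. In all, edgeR called the gap for 73 of 8804 genes (0.829%), 44 higher (0.5%) and 29 lower (0.329%) in Cd8a-detected cells, while DESeq2 called 38 and edgeR without the block 4. Csf2 differed by -1.60 without Cd8a and -1.58 with it, a gap of 0.035 ± 0.47 (edgeR adjusted p = 0.99), and Ccl1 by -1.63 and -1.20 (a gap of 0.46 ± 0.19, edgeR adjusted p = 0.379).

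**Figure D5:**
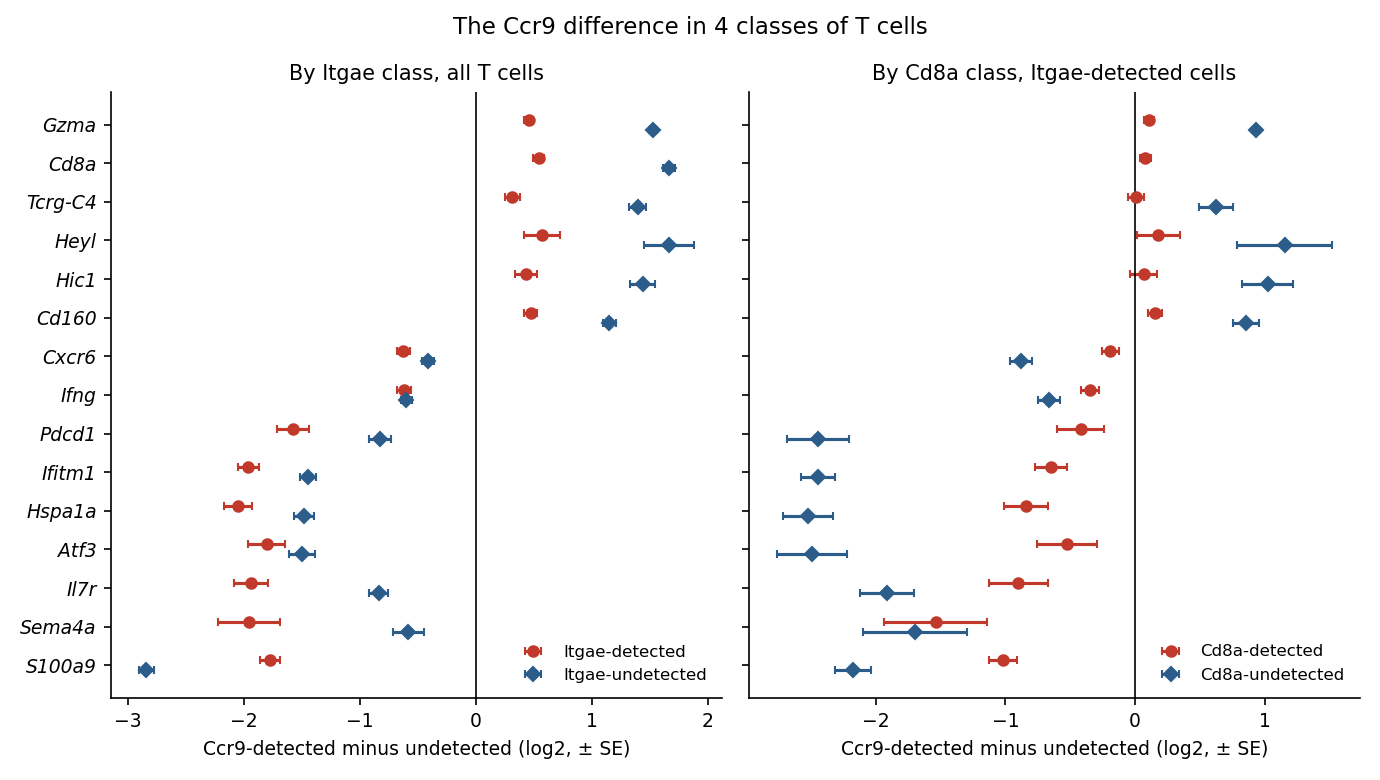
The x axes give the log2 difference of Ccr9-detected minus Ccr9-undetected cells with its SE, on the left for Itgae-detected (circles) and Itgae-undetected T cells (diamonds), on the right for Itgae-detected cells with (circles) and without Cd8a (diamonds). Gzma, Cd8a and Tcrg-C4 differ more without Itgae, and Pdcd1, Ifitm1 and Hspa1a lie closer to 0 in Cd8a-detected cells.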

How the data were processed

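The submitters' processing notes name Cell Ranger 3.1.0 and the mm10 genome, and the authors deposited UMI counts per gene and barcode for both gene expression libraries. The counts were used as deposited. A library's 2 classes share its cells' preparation, so the library number was the block that paired their sums. Cells were filtered and thinned as described above (numpy 2.4.6, seeded), the UMIs of each class were summed by library, and the sums were tested with edgeR 4.0.16 in R 4.3.3 (filterByExpr with default settings, TMM scaling, quasi-likelihood test with 1 residual degree of freedom, threshold 0.05). Levels in CPM are counts in 1000000 UMIs of a class, with Ccr9 left out of the sums for the test. Gene positions are from GENCODE vM21, in which 611 of 611 named genes were found. The scripts were tested on simulated data.

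The members and gene lists were chosen with earlier results of these data known. Named genes are a set panel, up to 4 called genes of each list with the largest change, the 15 largest rises and falls and the 10 largest interactions. The largest rises and falls were taken from called genes with at least 50 CPM and the same direction in both libraries. Actn2, Ccl5, Cd7, Cd96, Ctla4, Fabp1, Gata3, Hspa5, Ikzf2, Jaml, Lag3, Nkg7, Skil and Tox were named after their values were seen. Some called genes are not reported here. Set-aside UMIs, shared barcodes, the Cd8a interaction and the background class by marker UMIs were also added after seeing the data, and the other settings tried were DESeq2 1.42.0, no block, no expression filter, RLE size factors, other thinning depths and draws and leaving out groups of cells.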

Additional observations from a re-analysis of the deposited data

Results flagged for a closer look

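The interaction between Ccr9 and Itgae, tested in edgeR over 8 sums, called 71 genes for which the difference between Ccr9-detected and Ccr9-undetected cells was not the same in Itgae-detected as in Itgae-undetected T cells. The 10 with the largest gaps, among those at 50 CPM or more in a class, are given here. The gap, Itgae-detected minus Itgae-undetected on the log2 scale, was -1.39 for Sema4a, -1.15 for the monocarboxylate transporter family gene Slc16a11, -1.13 for Cd8a, -1.11 for Il7r, -1.10 for Heyl, -1.08 for Tcrg-C4, -1.08 for 2900026A02Rik, -1.08 for Gzma and -1.01 for Hic1. Only S100a9, a neutrophil alarmin, had a gap above 0 in this set, at 1.01. Of the 10, Sema4a and Il7r fell in both classes and more so with Itgae, and Cd8a, Gzma, Tcrg-C4, Heyl and Hic1 rose in both classes and more so without it.

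The interaction between Ccr9 and Cd8a within Itgae-detected cells was called for 73 genes, of which the 6 with the largest gaps, chosen in the same way, are given. The gap, Cd8a-detected minus Cd8a-undetected, was 4.23 for Hbb-bs, 2.16 for Hspa1b, 2.06 for Pdcd1, 1.99 for Atf3, 1.83 for Ifitm1 and 1.71 for Hspa1a. Without cells that held markers of other types the overall difference of Hbb-bs was -0.09, and Hspa1a and Hspa1b are near-identical copies.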

How the results depend on the processing

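Depth limits the split, since Ccr9 detection follows the UMIs read. The share of Itgae-detected cells with Ccr9 was 46.5% without thinning and 15.6% at 1000 UMIs, against 23.0%. Without thinning, where depth also differs between the classes, 1701 genes were higher and 1860 lower with Itgae, 314 and 397 without it, and 756 had an interaction with Itgae. At 1000 UMIs the counts were 48 and 170 with Itgae, 360 higher without it, and 19 interactions. Requiring 2 Ccr9 UMIs gave 39 and 190, Cd8a-detected cells alone 1 and 66, and no expression filter 114 higher. DESeq2 gave 12 and 96 with Itgae, 104 and 188 without it, 29 Itgae interactions and 38 Cd8a interactions. With no replicate block the counts were 17 and 199, 129 and 206, 9 and 4. In the remaining alternatives these counts stayed within 1.5 times their value.

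Of single genes, a few turned direction. Without thinning Mki67 stood at 0.69, Fabp2 at -0.77, Lag3 at -0.091, Dnajb4 at -0.25, Rps19 at 0.017 and H2-Aa at 0.31, and H2-Aa at 0.068 without cells with other markers. In the set-aside UMIs Dnajb4 stood at -0.13. In Cd8a-detected cells Ctsw stood at 0.022, Hbb-bs at 0.027, Slc16a11 at -0.039 and Rora at 0.036. Birc5 stood at -0.018 at 1000 UMIs and -0.091 without cycling cells. Between the libraries, each left out in turn, Hba-a2 ranged from -2.53 to 1.82 and Prss34 from -4.30 to 0.21. The cause was not tested.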
